A study of Mus musculus with 6 samples.

Results

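The genes described here are 4 members of the BMP and TGF-beta signalling system: Bmp5, which encodes a secreted BMP ligand, Chrdl2, which encodes chordin-like 2, a secreted BMP-binding antagonist, and Id4 and Tgfbi, which are widely used as target genes. They were chosen as all probe sets of the authors' significance table whose gene symbol was one of these names, which gave 5 probe sets out of 928 with a single symbol and 45101 on the array. Bmp5 had 2 probe sets and the other genes 1 each. Intensity was measured in mesenchyme of the maxillary arch, the part of the embryonic face that forms the upper jaw and secondary palate, at embryonic day 10.5. The arrays came from 3 wild-type embryos and 3 Lhx6-/-; Lhx8-/- embryos, here called double mutants, all female and on a mixed C57BL/6J, 129 and CD-1 background. Lhx6 and Lhx8 encode LIM-homeodomain transcription factors, and the tissue was the laser-cut region in which both are normally active. Which exons the 2 alleles lack is not stated in those labels.

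BMPs and TGF-betas are secreted dimers that bind paired serine/threonine kinase receptors, and the receptors phosphorylate SMAD proteins that enter the nucleus with SMAD4. Extracellular antagonists of the chordin and noggin type hold BMP ligands away from their receptors. In the facial primordia BMP signalling is known for its part in outgrowth and patterning of the jaw and palate mesenchyme, and genes of the Id and Msx families are among its usual readouts.

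Id4 intensity was lower in the double mutants, and Bmp5 intensity was higher at both of its probe sets. For these 3 probe sets the wild-type and double-mutant arrays did not overlap in either deposited table. Of all probe sets in the value table, 10.8% were separated in this way, in either direction, as were 100% of the 1061 rows of the significance table. Chrdl2 and Tgfbi were listed by the authors as higher, but in the table of all probe sets their groups overlapped. The ligand and the antagonist were therefore listed in 1 direction. The 2 target genes, Id4 on the BMP side and Tgfbi on the TGF-beta side, were listed in opposite directions. None of the 5 differences passed limma with Benjamini-Hochberg adjustment over 45037 probe sets, where each had an adjusted p of 0.857. Every gene name here comes from a table that the authors had filtered at an unadjusted p of 0.05 and a fold of 1.25 on arrays of these groups. At least 5 of the 6 arrays are shared with the value table by their labels, so its values give no independent support.

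Both tables hold linear intensities on different scales. The value table covers every probe set, and 16 was added to it before log2, which understates fold changes of dim probe sets. The significance table holds the selected rows only, and its log2 differences carry no added constant. One wild-type column of the significance table is numbered unlike any sample and is called the wild-type array without a number. Median intensity in the value table ran from 19.0 to 20.5 over the 6 arrays. The array labelled double mutant 1 stood apart from the others. Its ratio of 3' to 5' signal at the beta-actin control probe sets was 24.8, against 1.62 to 1.85 on the other 5 arrays. The correlation of its log2 intensities with those of each other array, across probe sets, was 0.887 to 0.910, and that among the other 5 arrays was 0.979 to 0.990. Lhx8, one of the targeted genes, read 2036 on this array in the value table, inside the wild-type range of 1992 to 2241, while the arrays labelled double mutant 2 and 4 read 699.3 and 910.5. In the significance table it read 5177 on double mutant 1, below the wild-type arrays at 8628 to 9493 and above the 2711 and 3177 of double mutants 2 and 4. Each member's value-table difference is therefore also given without that array. In tissue, fewer cells of a type and less RNA per cell cannot be told apart.

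The sequence before the start of transcription is shown for the members that matched the RefSeq promoter table by symbol, 3 of the 4. There the target and ligand genes of the system can be compared for the short words that SMAD proteins are known to bind. The 250 bases upstream of each start, on build GRCm38.p6 and all on the plus strand, are chr13:48260866-48261115 for Id4, chr13:56609336-56609585 for Tgfbi and chr9:75775115-75775364 for Bmp5. Capitals mark GGCGCC, a GC-rich word known from BMP-responsive SMAD elements, and CAGAC or its reverse complement GTCTG, the core of the SMAD-binding element.
Id4: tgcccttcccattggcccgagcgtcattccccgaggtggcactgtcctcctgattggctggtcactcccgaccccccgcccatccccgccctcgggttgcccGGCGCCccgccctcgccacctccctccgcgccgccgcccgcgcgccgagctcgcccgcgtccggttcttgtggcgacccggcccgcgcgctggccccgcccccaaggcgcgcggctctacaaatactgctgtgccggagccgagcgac
Tgfbi: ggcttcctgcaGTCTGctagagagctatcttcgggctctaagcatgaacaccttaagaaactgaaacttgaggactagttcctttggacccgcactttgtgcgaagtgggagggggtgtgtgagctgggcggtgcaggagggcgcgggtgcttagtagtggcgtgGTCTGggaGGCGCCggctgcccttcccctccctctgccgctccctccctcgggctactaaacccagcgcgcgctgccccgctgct
Bmp5: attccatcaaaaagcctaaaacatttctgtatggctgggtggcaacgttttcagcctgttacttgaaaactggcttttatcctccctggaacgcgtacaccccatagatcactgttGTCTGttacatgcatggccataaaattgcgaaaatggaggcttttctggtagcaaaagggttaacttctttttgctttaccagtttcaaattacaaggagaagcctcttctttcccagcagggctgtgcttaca

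The upstream sequences of the 2 target genes each held GGCGCC, in Id4 starting 148 bases before the start of transcription and in Tgfbi 77 bases before it. The word was in 9.59% of all 32851 promoter sequences of this length, searched on both strands. Tgfbi also held GTCTG at 239 and 85 bases before the start, and Bmp5 held it at 134 bases, a word in either orientation found in 42.2% of all promoters. TAATTA, a word that LIM-homeodomain proteins are known to bind, was in none of the 3 sequences and in 4.84% of all promoters. GC content was 75.6% for Id4, 62.4% for Tgfbi and 42.8% for Bmp5, against a median of 52.4%. These matches describe the letters of the windows and no binding was measured.

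**Figure D1:**
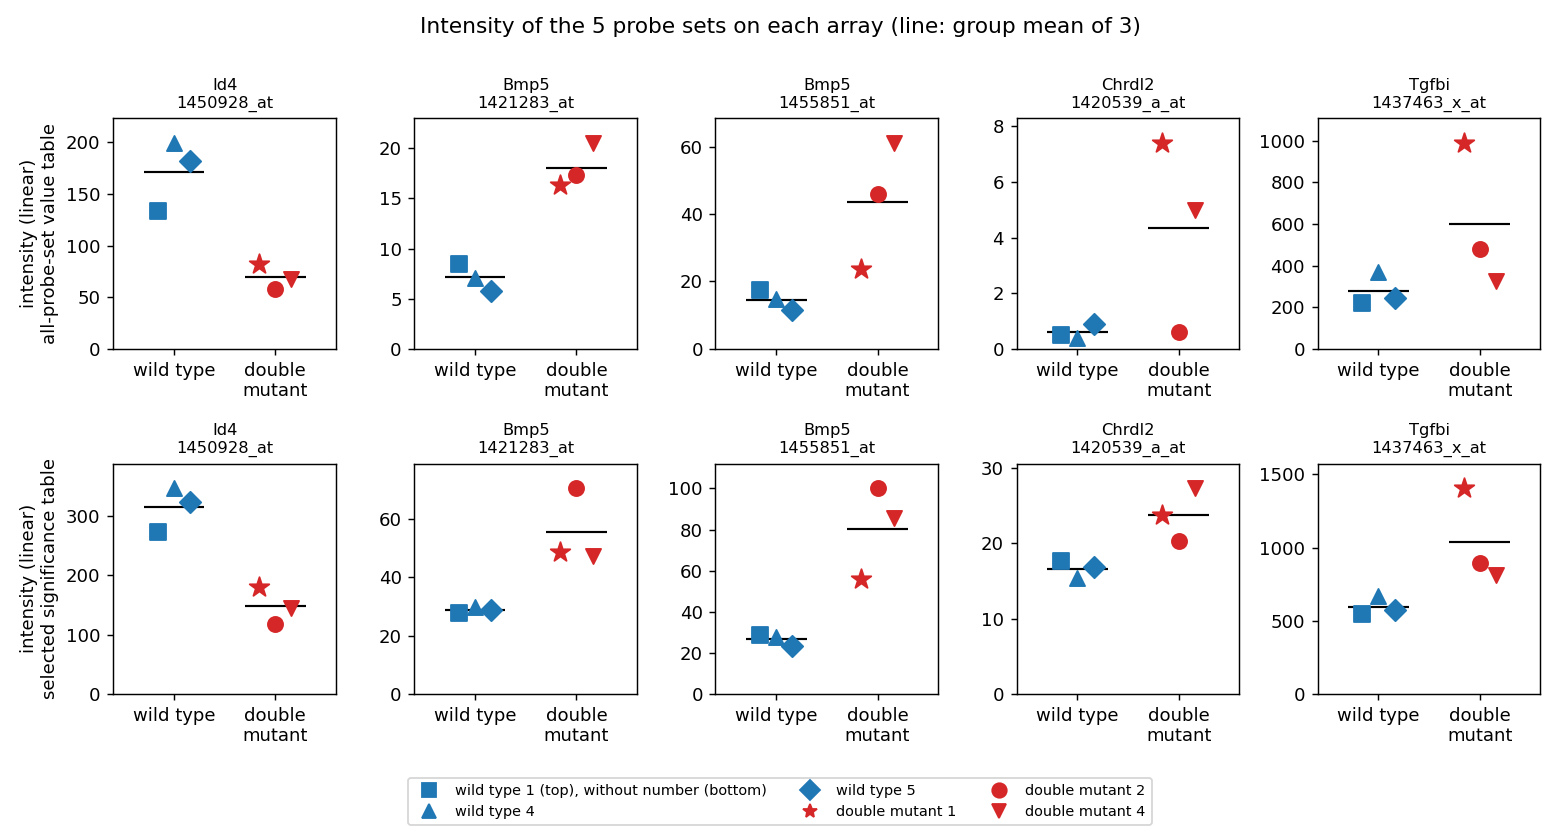
Linear intensity of each of the 5 probe sets on each array, in the value table (top row) and the significance table (bottom row), with wild type in blue, double mutants in red and a line at each group's mean of 3 arrays. Id4 and both Bmp5 probe sets separate the groups in both rows, while Chrdl2 and Tgfbi overlap in the top row.

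Bmp5 is the ligand among the members, a BMP known in mouse as the product of the short ear locus, where its loss alters cartilage and bone. Its first probe set, 1421283_at, read 8.5, 7.1 and 5.8 on wild types 1, 4 and 5 in the value table, and 16.3, 17.3 and 20.5 on double mutants 1, 2 and 4. Every double-mutant array was above every wild-type array. The group means were 7.13 ± 1.35 and 18.0 ± 2.19 (SD, n = 3), a ratio of 2.53 on the linear scale. On the log2 scale with 16 added the difference was 0.56 ± 0.11 (SE) and the unadjusted limma p was 0.00290. Without double mutant 1 it was 0.59 ± 0.11. In the significance table this probe set read 27.7 on the wild-type array without a number, 29.7 and 28.9 on wild types 4 and 5, and 48.5, 70.3 and 47.1 on double mutants 1, 2 and 4. The wild-type arrays lay within 7.22% of their lowest value, and the spread of the double mutants came from double mutant 2.

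The second Bmp5 probe set, 1455851_at, had the higher ratio of the 2. In the value table it read 17.5, 14.7 and 11.4 on wild types 1, 4 and 5, and 23.8, 46.0 and 61.0 on double mutants 1, 2 and 4. The groups again did not overlap, and the array labelled double mutant 1 was the lowest of its group, at 0.445 times the mean of the other two. Group means were 14.5 ± 3.05 and 43.6 ± 18.7 (SD, n = 3), a linear ratio of 3.00. The value table's log2 difference was 0.92 ± 0.26 (SE) and the unadjusted limma p was 0.0131. Without double mutant 1 the difference was 1.18 ± 0.15 and the unadjusted limma p was 0.000317. In the significance table the wild-type arrays read 28.8, 27.6 and 23.2, in the order without a number, 4 and 5, and double mutants 1, 2 and 4 read 56.1, 100.1 and 85.4. The highest double mutant was array 4 in the value table and array 2 in the significance table, so the tables order the mutant embryos differently.

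The 2 Bmp5 probe sets are aligned to different spans of the same gene, and the positions of their probes within them were not given. The file aligns the first to chr9:75623899-75747179, which spans 123281 bases, and the second to chr9:75746861-75748316, both on the plus strand; the genome build is not given in the sources used. The alignments share 319 bases, so the second lies at the downstream end of the first. In the authors' deposited table the first was 1.89-fold higher with p = 0.00809 and the second 2.96-fold higher with p = 0.00421, from an unpaired test without correction. Both means were under 100 in either group, so neither met the authors' 3 criteria, which required mean intensity over 100, fold over 1.5 and p under 0.05. Bmp5 was dim on every array: the first probe set stood at percentiles 32.6 to 50.1 of all non-control probe sets in the value table and the second at 42.9 to 65.0. These ranks describe probe brightness and not transcript abundance.

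Chrdl2, the antagonist, is annotated in the file as a negative regulator of BMP signalling and was the dimmest member. Its probe set 1420539_a_at read 0.5, 0.4 and 0.9 on wild types 1, 4 and 5 in the value table, and 7.4, 0.6 and 5.0 on double mutants 1, 2 and 4. Double mutant 2 lay inside the wild-type range, and all 6 values were in the lowest 33.5% of probe sets of their arrays. The log2 difference in the value table was 0.28 with a 95% interval from -0.10 to 0.66 and an unadjusted limma p of 0.124. Without double mutant 1 it was 0.17, and without double mutant 2 it was 0.42 with an interval from 0.10 to 0.74. In the significance table Chrdl2 read 17.7, 15.4 and 16.8 on the wild types without a number, 4 and 5, and 23.7, 20.3 and 27.3 on double mutants 1, 2 and 4. There the groups did not overlap, and the authors' deposited table gives a fold of 1.42 higher with p = 0.0207. With all 6 arrays the interval in the value table included 0. The file places the probe set on chr7:107154913-107183236, plus strand, on the same unnamed build.

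Id4, a target gene, encodes a helix-loop-helix protein that lacks a DNA-binding basic region and holds bHLH transcription factors inactive. Its probe set 1450928_at read 133.8, 199.0 and 181.9 on wild types 1, 4 and 5 in the value table, and 81.9, 58.3 and 68.0 on double mutants 1, 2 and 4. The highest double mutant was below the lowest wild type. Means were 172 ± 33.8 and 69.4 ± 11.9 (SD, n = 3), so wild type was 2.47 times the double mutant on the linear scale. The value table's log2 difference was -1.13 ± 0.19 (SE), and its 95% interval ran from -1.59 to -0.66. The unadjusted limma p was 0.00107. By its unadjusted p Id4 ranked 44 of 45037 probe sets. Without double mutant 1 the difference was -1.23 ± 0.18 with an adjusted limma p of 0.394. In the significance table Id4 read 272.5, 346.1 and 323.9 on the wild types without a number, 4 and 5, and 180.3, 117.5 and 144.8 on double mutants 1, 2 and 4. The authors' deposited table gives 2.15-fold lower with p = 0.00583, and Id4 met the 3 criteria. In both tables double mutant 1 was the closest of the mutants to wild type. The file places the probe set on chr13:48356456-48360229, plus strand.

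Tgfbi, the other target, encodes a secreted matrix protein first known as induced by TGF-beta, and the file annotates it to cell adhesion and matrix organisation. Its probe set 1437463_x_at read 222.6, 368.7 and 243.9 on wild types 1, 4 and 5 in the value table, and 987.8, 478.9 and 326.3 on double mutants 1, 2 and 4. Double mutant 4 lay below wild type 4, so the groups overlapped. The array labelled double mutant 1 was 2.45 times the mean of the other 2 mutants. Means were 278 ± 78.9 and 598 ± 346 (SD, n = 3), and the double-mutant mean was 403 without that array. The log2 difference in the value table was 0.94 with a 95% interval from -0.11 to 2.00 and an unadjusted limma p of 0.0701, and it was 0.52 with an interval from -0.14 to 1.17 without double mutant 1. Without double mutant 4 it was 1.29 with an interval from 0.27 to 2.31. In the significance table Tgfbi read 548.2, 669.6 and 570.4 on the wild types without a number, 4 and 5, and 1405, 896.0 and 813.9 on double mutants 1, 2 and 4. There the groups did not overlap, and the authors' deposited table gives 1.70-fold higher with p = 0.0417, which met the 3 criteria. The high reading on double mutant 1 stood on the array with the raised 3' to 5' ratio, and the part of that ratio in it was not tested. The probe set aligns to 262 bases, chr13:56740448-56740709, plus strand, and its suffix marks probes that may also match other transcripts, so its signal is uncertain as a reading of Tgfbi alone.

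**Figure D2:**
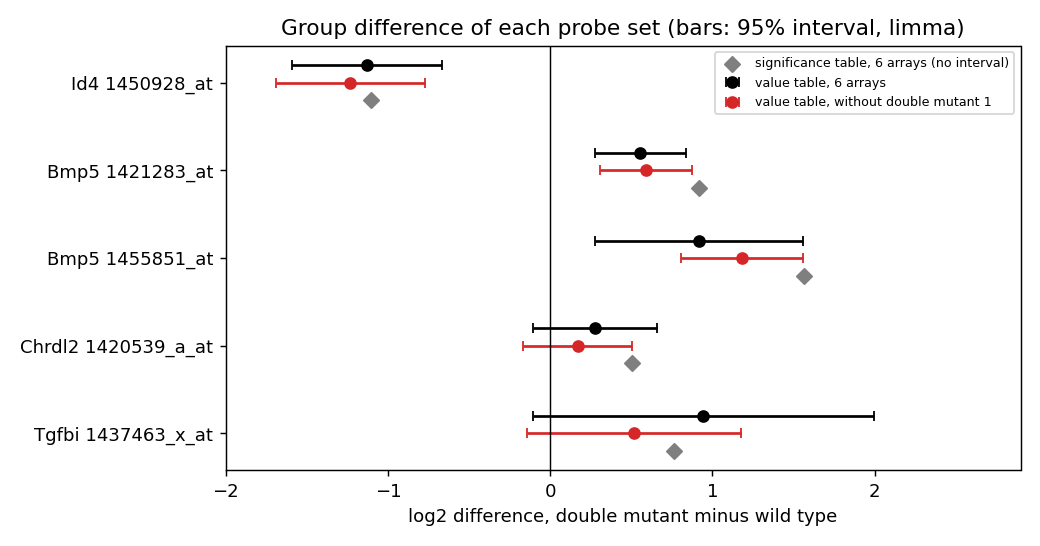
Log2 difference, double mutant minus wild type, for each probe set: limma estimates with 95% intervals from the value table with 6 arrays (black) and without double mutant 1 (red), and the significance table's difference without an interval (grey). The intervals of Id4 and Bmp5 lie to one side of 0 in both fits, and those of Chrdl2 and Tgfbi include 0.

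Over the array as a whole, the groups did not overlap for 10.8% of probe sets in the value table. For 3 arrays against 3 without a group difference the expected share is 0.1. Of 45037 probe sets in the value table, 6.72% had all double mutants above all wild types, as both Bmp5 probe sets did, and 4.06% had them below, as Id4 did. Among the 1061 listed probe sets the share for either direction was 57.8%. At an unadjusted limma p under 0.05, reached by Id4 and both Bmp5 probe sets, the share of all probe sets was 3.65%. This is under the share of 0.05 expected at that cut-off without a group difference. It was made up of 2.18% higher and 1.47% lower. This balance turned to 1.53% higher and 1.99% lower with each array shifted to a common median. At an adjusted p under 0.05 it was 0%, with 1646 probe sets at an unadjusted p under 0.05. The authors' 3 criteria held for 24.6% of listed probe sets, Id4 and Tgfbi among them. Since the authors had selected the members' rows by this group difference, their counts cannot be read against these shares as evidence.

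Leaving out arrays changed the listing of some members. When each array was left out in turn and p and fold were recomputed from the significance table, Id4 and both Bmp5 probe sets met the listing rule in 6 of 6 recomputations. Chrdl2 met it in 3 of 6 and Tgfbi in 2 of 6. Of all 1061 listed probe sets, 287 met it in 6 of 6, 463 in at least 3 and 708 in at least 2. The recomputations reused the values by which the authors had selected these rows, so they are no independent test. A smaller group can also raise p by itself. Without double mutant 1 the fold of Chrdl2 stayed at 1.42, while its p in the unpaired test without correction went from 0.0207 to 0.065. A failure therefore need not mean that a listing rests on the array left out. Folds ranged from 1.93 to 2.40 lower for Id4, from 1.66 to 2.03 and from 2.62 to 3.50 higher for the Bmp5 probe sets, from 1.32 to 1.53 for Chrdl2 and from 1.44 to 1.89 for Tgfbi. Without the array labelled double mutant 1 came the highest of these folds for Id4 and for Bmp5 1455851_at, and the lowest for Tgfbi.

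The genes of the system, members included, were looked up in the same table, which lists 2.36% of the 45037 probe sets tested. Genes with several probe sets have several chances of a listing. Of 114 genes on a list of ligands, receptors, antagonists, mediators and targets, 8 had a listed probe set, 6 higher and 2 lower, while 523 of all 842 listed genes were higher and 319 lower. Over intensity 100 the family had 3 higher and 2 lower, and all listed genes 176 higher and 201 lower. The median log2 difference in the significance table was 0.60 for the 8 genes and 0.38 for all listed genes. The 8 include the 4 members, which were chosen from this table, so the count, directions and median are partly fixed by that choice. The non-members were Sost, Gata3 and Pmepa1, listed as higher, and Msx1, listed as lower. Of 23 BMP and GDF ligands Bmp5 was the one listed. None of 11 TGF-beta and activin ligands, 18 receptors or 18 intracellular mediators was listed, and since unlisted probe sets carry no name their values were not analysed here. Of 26 extracellular antagonists and modulators, Chrdl2 and Sost were listed, both higher and both under intensity 100. Sost encodes sclerostin, an inhibitor of WNT signalling that also binds BMPs. Its probe set 1421245_at went from 33.9 ± 4.02 to 50.8 ± 9.96 in the significance table, and 1450179_at from 38.6 ± 3.02 to 49.7 ± 4.44 (SD, n = 3). In the value table both probe sets overlapped between the groups, with log2 differences of 0.38 for 1421245_at and 0.05 for 1450179_at.

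Of 18 target genes 5 were listed, all over intensity 100. Msx1, a homeobox gene that responds to BMP, stood with Id4 on the lower side, at 4554 ± 464 and 2923 ± 490 in the significance table (SD, n = 3). Tgfbi stood on the higher side with Gata3, a zinc-finger transcription factor gene, and Pmepa1, a gene induced by TGF-beta whose product limits SMAD signalling. Pmepa1 read 440.7, 481.9 and 488.1 on the wild types without a number, 4 and 5 in the significance table, and 954.7, 738.1 and 614.7 on double mutants 1, 2 and 4. Its order among the mutants was that of Tgfbi, with double mutant 1 highest and double mutant 4 lowest. In the value table Pmepa1 read 155.6, 200.2 and 245.2 on wild types 1, 4 and 5, and 383.2, 293.5 and 188.1 on double mutants 1, 2 and 4, so the groups overlapped there as well. The value table's log2 difference was 0.46 ± 0.29 (SE) with all arrays and 0.24 without double mutant 1, and the unadjusted limma p with all arrays was 0.167. The groups of Msx1 and Gata3 did not overlap in the value table, with log2 differences of -0.48 and 1.46 and unadjusted limma p of 0.0383 and 0.00591. Without double mutant 1 these differences were -0.57 and 1.50.

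**Figure D3:**
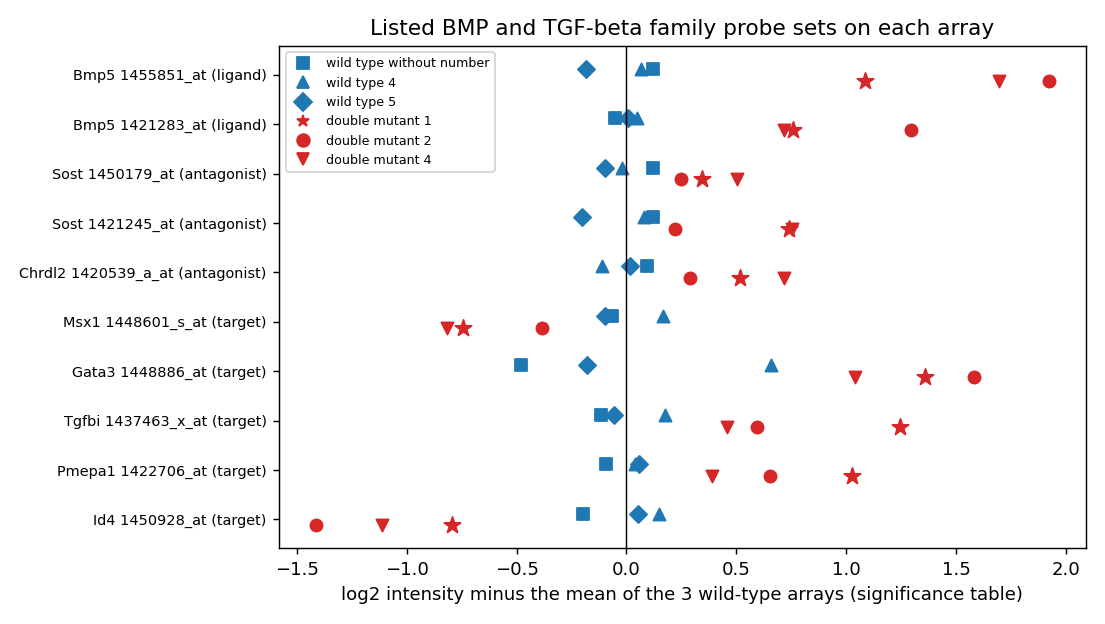
Log2 intensity of each listed probe set of the pathway list on each array, relative to the mean of the 3 wild-type arrays, from the significance table. Bmp5 probe sets, Gata3, Tgfbi, Pmepa1, Sost and Chrdl2 lie to the right of 0 in the double mutants (red) and Msx1 and Id4 to the left; all rows were selected by the authors on these columns.

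Genes whose profile over the 6 arrays lay nearest to each member were taken from the 928 named probe sets by the root mean square difference of centred log2 values in the value table. For Id4 they were Cthrc1, which encodes a secreted collagen-like protein, Prr16 and the leptin receptor gene Lepr, at 0.19, 0.19 and 0.20 log2 units, where the median named probe set lay at 0.68. For Bmp5 1455851_at they were Gucy1a3, a subunit gene of soluble guanylate cyclase, at 0.07, the transcription factor gene Ebf2 at 0.11 and Eya2, a transcription cofactor gene, at 0.14, against a median of 0.54. For Bmp5 1421283_at they were the phosphatase gene Ptpn14, Nacc2 and Foxp1, each at 0.07, against a median of 0.32. For Tgfbi they were Ddx43, Phlda1 and Slc24a3, at 0.19, 0.20 and 0.23 against a median of 0.70. For Chrdl2 they were Spna1, Olig3 and Dennd1c, at 0.04, 0.05 and 0.06 against a median of 0.31. The 2 Bmp5 probe sets had no nearest gene in common. All these genes come from the table that the authors had selected by the difference between the groups.

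Markers of other cell types that the cut tissue could hold were named for few genes. Beside the 2.36% of probe sets listed over the array, of 7 Schwann cell precursor and glial crest markers 4 were listed. These were Ngfr, Erbb3, Sox10 and Foxd3, all higher, where 523 of all 842 listed genes were. Their summed intensity in the significance table was 259 to 286 in wild type and 506 to 633 in the double mutants. Most of that sum was the brighter Ngfr probe set, at 176 to 206 and 328 to 477. Of the 4 markers, Ngfr alone had a mean over intensity 100 and met the 3 criteria. Means of Erbb3, Sox10 and Foxd3 were 49.8, 20.3 and 10.3 in wild type, and 95.5, 59.9 and 16.9 in the double mutants. Of 5 pericyte markers Pdgfrb was listed as higher, at 1868 to 2096 and 2615 to 3045, and of 5 muscle progenitor markers the dim Pax7 was. None of the 7 epithelial, 7 endothelial, 7 blood or 6 neuronal markers was listed. Of the 8 mesenchyme markers Msx1 alone carried a name, at 4236 to 5087 in wild type and 2578 to 3484 in the double mutants, the direction of Id4, so the labelled tissue could not be checked beyond it. In the significance table the listed glial crest markers and Pdgfrb were higher in the double mutants, as were Bmp5, Chrdl2 and Tgfbi. Pdgfrb was 1.40-fold higher and did not meet the 3 criteria, and the groups of Chrdl2 and Tgfbi overlapped in the value table. The part of any marker's cells in the members' differences was not tested.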

How the data were processed

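Expression was measured on Affymetrix mouse arrays from laser-cut maxillary arch mesenchyme, with RNA amplified by the Ovation system, per the labels' protocols. The deposited value table has a linear intensity for each array at 45101 probe sets, 64 of them controls. No tool but RMA is named, per the submitters' processing notes; linear values with zeros are not RMA output, so the summarisation remains unknown. The authors' significance table holds 1061 probe sets kept at an uncorrected p-value of 0.05 and a fold (ratio) of 1.25, per the file headers, with linear intensities called raw; its 6 columns of normalized values were not used. Recomputed p-values and folds matched the deposited ones to within 5.14e-07 and 1.63e-06.

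For the value table, control probe sets were left out, 16 was added before log2, and limma 3.58.1 (lmFit, eBayes; R 4.3.3) was run on all 45037 others with genotype as the one term and Benjamini-Hochberg adjustment. Python 3.11.15, pandas 2.3.3, numpy 2.4.6, scipy 1.17.1 and matplotlib 3.10.9 did the rest, and the fit was tested on simulated data. With 3 arrays a side the smallest p an exact permutation test allows is 0.1, so none was run. The precision is limited by the 3 arrays per group. Each array is from 1 embryo, per the series' design text. Deviations of same-numbered arrays from their group means had an r of 0.05 for number 1 and -0.05 for number 4, across probe sets. With double mutant 1 in the mean of its group, these 2 values cannot show or exclude pairing. The numbers were not taken as pairs, and a replicate block was run as an alternative.

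The members, the 114-gene list and the marker lists were chosen with earlier results of these data known. Genes named are the members, listed members of those lists, Lhx8, the 3 nearest profiles per member, and, chosen after their values were seen, genes under annotation terms of the file. The alternatives were intensity filters, other constants, quantile normalization, a common median, array weights, a trended prior, the ordinary test, a replicate block, and leaving out each array.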

Additional observations from a re-analysis of the deposited data

How the results depend on the processing

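The members' log2 differences in the value table kept their direction in every alternative run, 16 for Id4 and Tgfbi and 14 for each Bmp5 probe set and Chrdl2, and none passed an adjusted p of 0.05. The Bmp5 and Chrdl2 probe sets did not reach the filters of a mean over 100 or over 50 and gave no value there. Differences ranged from -1.31 to -0.81 for Id4, from 0.21 to 0.99 for Bmp5 1421283_at and from 0.44 to 1.29 for 1455851_at, from 0.06 to 0.76 for Chrdl2 and from 0.52 to 1.29 for Tgfbi. The widest spread for the dim probe sets lay between 4 and 64 added before log2, except that Chrdl2 was lowest with array weights, and Tgfbi was lowest without double mutant 1 and highest without double mutant 4. Adjusted limma p ranged from 0.101 to 0.977 for Id4 and from 0.421 to 0.977 for Tgfbi. For Bmp5 1421283_at it ranged from 0.175 to 0.977, for 1455851_at from 0.101 to 0.977 and for Chrdl2 from 0.603 to 0.977.

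Over all probe sets, 9 passed an adjusted p of 0.05 with array quality weights, where double mutant 1 had a weight of 0.124, and 1 passed by the ordinary test, the unnamed probe set 1447616_at with 0.1 on every wild-type and 0.2 on every double-mutant array. The unadjusted count was 1646, or 3.65%, against 245 and 383 with the filters at 100 and 50. These filters test fewer probe sets, 14446 and 18371, and the shares were also lower, at 1.70% and 2.08%. The unadjusted count was 4719 with array weights and 667 with the replicate block. The cause was not tested for the weights. In the block, wild type 5 and double mutant 2 have no same-numbered array in the other group. The block's group difference therefore rests on the arrays numbered 1 and 4 alone, double mutant 1 among them. Of the 1646, 982 were higher and 664 lower, against 690 and 898 with a common median and 856 and 811 with quantile normalization. Leaving out 1 array gave 796 (wild type 5) to 3327 (double mutant 2), and 2825 without double mutant 1. No member had an adjusted call that the replicate block could end; at an unadjusted limma p of 0.05 the block lost Id4 (log2 difference -0.98, unadjusted limma p of 0.0532 and adjusted 0.938) and both Bmp5 probe sets (0.108 and 0.139). Requiring a mean over 100 left 5 of the 8 listed family genes, all of them targets.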

Other observations

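The file's own annotation gave a partly different set of genes from the fixed list, by terms chosen after the data were seen. Genes annotated to the BMP signalling pathway numbered 7, of which Chrdl2, Sost, Egr1, Foxd1 and Foxd2 were listed as higher and Msx1 and Lef1 as lower. Genes annotated to transforming growth factor beta also numbered 7, with Thbs1, Npnt, Cited2, Cdkn1c and Pdgfrb higher and Atf2 and Wnt11 lower. Each set thus had 5 higher and 2 lower, beside 523 higher of all 842 listed genes. Bmp5 was annotated to BMP receptor binding, while Id4 and Tgfbi carried none of these terms. Bmp5 and Chrdl2 shared the term ossification with Foxc1, Kazald1, Ptn and Sost, and all 6 genes were listed as higher, where 523 of 842 listed genes were; 2 of the 6 had a mean over intensity 100, and over that level 176 listed genes were higher and 201 lower. Of 38 listed genes annotated to cell adhesion, Tgfbi among them, 29 were higher and 9 lower, beside the same 523 of 842. Of the 38, 15 had a mean over intensity 100.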
